A study of Mus musculus with 2 samples.

Results

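The cyclic AMP (cAMP) pathway carries signals from G protein-coupled receptors to protein kinase A (PKA), and one of the targets of that kinase is the transcription factor CREB. The genes described here encode its enzymes, anchors and G proteins: adenylyl cyclases, phosphodiesterases, PKA subunits, A-kinase anchoring proteins, G protein alpha subunits and regulators of G protein signalling (RGS proteins). They were taken by symbol (Adcy, Pde, Prkac, Prkar, Akap, Gna and Rgs names), with no filter on level. They were 80 of the 15574 genes listed in either library. All mapped to GENCODE gene models on GRCm38.

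T helper 17 (Th17) cells are CD4 T cells that make IL-17, and both libraries were made from mouse cells of this kind grown in vitro. Naive T cells of the C57BL/6 strain were cultured with IL6, TGFb, IL1b and IL23 for 6 days and then stimulated through CD3 on a coated plate for 4 h. The groups were CREB KO and wildtype, with 1 library each, with 23.9 M (knockout) and 26.5 M (wildtype) counted reads. Where a pair of values is given without a library, the library labelled knockout comes first. The means of CREB removal and animal age were not given in the sources used here. Without replicates no p-value can be given, so every difference lies between 2 libraries. Intervals are 95% and cover counting error only. No molecular identifiers are described, so reads may not be independent molecules and the intervals may be too narrow.

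The reads of the targeted gene did not mark the library labelled CREB KO: Creb1 had 25 reads there and 13 in the wildtype library, a ratio of 2.08 (1.04 to 4.51). The wording "library labelled knockout" is therefore kept throughout. Of 11 Th17 and T cell markers, 10 were listed, all at 1 CPM (the counts-per-million unit) or more, and Il17a and Il17f were lower in the library labelled knockout. Myeloid and dendritic markers summed to 57 reads in the library labelled knockout, against 60 in wildtype, B cell markers to 53 and 54, and red cell and platelet markers to 0 and 5. Markers of CD8 T and NK cells summed to 527 and 662 reads, nearly all from Klrd1 (289 and 420) and Cd8b1 (234 and 237), with Cd8a, Ncr1, Klrb1c and Gzma unlisted. Lyz2, Itgam, S100a8, Ms4a1 and Ighm were also unlisted. The part of such cells in the results was not tested. In bulk RNA, fewer cells of a type and less RNA per cell cannot be told apart.

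In a resting cell PKA is a tetramer of regulatory and catalytic subunits. A receptor coupled to the stimulatory alpha subunit Gs turns on adenylyl cyclase, the cAMP formed binds the regulatory subunits, and the catalytic subunits are released to phosphorylate targets such as CREB and the T cell kinase Csk. Inhibitory (Gi) alpha subunits restrain the cyclases, phosphodiesterases destroy cAMP, anchoring proteins place the kinase in the cell, and RGS proteins speed up the shutdown of alpha subunits. In T cells a rise in cAMP is known to dampen T cell receptor signalling.

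CREB binds the cAMP response element (CRE), written TGACGTCA, or its 5-base core, TGACG as read on one strand and CGTCA as read on the other, so the promoters of the members were searched for these letters. The full element was found for 1 of 63 members with a RefSeq promoter (1.59%), against 2.03% of the 27025 genes in the table. That member was Prkar1a, which encodes the main PKA regulatory subunit of these cells. Members without a promoter in the table, among them Gnai2, Adcy6, Pde3b, Rgs1 and Akap12, were not searched. The core on either strand, which the full element also contains, was found for 33.3% of the 63 members and 23.0% of all genes. Among genes at 1 CPM or more it was found for 33.3% of 39 members and 36.8% of 7912 genes. A match in the window from 250 bases before to 50 bases after a start is a description of these letters, not a binding site. The following stretches (RefSeq, GRCm38.p6, gene strand, 5′ to 3′) show the element of Prkar1a and cores of 6 members from 5 subfamilies, with every match in capitals.
Prkar1a, chr11:109650889-109650918, plus strand: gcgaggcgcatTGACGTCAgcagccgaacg
Prkar1a, chr11:109650734-109650794, plus strand: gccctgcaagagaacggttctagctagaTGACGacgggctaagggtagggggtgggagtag
Rgs2, chr1:144004302-144004362, minus strand: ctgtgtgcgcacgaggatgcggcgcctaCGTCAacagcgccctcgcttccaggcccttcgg
Akap11, chr14:78536957-78537017, minus strand: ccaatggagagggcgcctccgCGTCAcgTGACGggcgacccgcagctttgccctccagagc
Pde8a, chr7:81213153-81213213, plus strand: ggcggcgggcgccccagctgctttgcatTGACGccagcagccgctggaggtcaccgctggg
Prkaca, chr8:83972830-83972890, plus strand: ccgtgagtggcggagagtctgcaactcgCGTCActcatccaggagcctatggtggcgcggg
Prkacb, chr3:146813016-146813076, minus strand: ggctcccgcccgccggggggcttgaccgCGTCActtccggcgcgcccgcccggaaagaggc

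The full element of Prkar1a lay 49 bases before 1 annotated start of the gene and 38 bases after another. Prkar1a itself had a ratio of 0.996 (0.975 to 1.02) between the library labelled knockout and the wildtype library. The 13 measured members whose promoters held the core had a median log2 ratio of -0.01, between -0.17 and 0.51, and the 26 without it had a median of 0.05, between -0.43 and 0.31. These ranges overlap.

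By level, 48 of the 80 members had a mean of 1 CPM or more and are called measured, 32 had 10 CPM or more and 11 had 100 CPM or more. The other 32 had at most 35 reads in a library. Of these, 6 were listed in 1 library only, with at most 3 reads. A further 17 protein-coding RefSeq genes that match the same names were listed in neither library, and the reads allow them a level of up to 0.125 CPM in the library labelled knockout versus 0.113 CPM in wildtype. They include Prkar1b, Adcy8, Pde3a, Akap4, Gna14 and 7 RGS genes (Rgs5, Rgs6, Rgs7, Rgs17, Rgs20, Rgs21 and Rgs22).

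A low count does not show that a gene is silent here. Members annotated with 2 or more curated RefSeq transcripts reached 10 CPM in 12 of 39 cases (30.8%), and those with 1 in 20 of 41 (48.8%). Over all protein-coding genes the shares were 42.7% and 54.3%. With only transcripts of accession number under 1300000 counted, a limit chosen with these results known, they were 23.1% of 26 and 48.1% of 54 members, and 31.0% and 56.2% of all genes. The part that the counting of reads shared by several transcripts plays in low levels was not tested. The number of curated transcripts is therefore given beside members whose low level matters. Single members also went the other way. Prkar1a has 8 curated transcripts at a mean of 661 CPM, Rgs19 has 7 at 110 CPM and Akap8 has 4 at 194 CPM. Gnai1 and Akap5 have 1 each and lay below 1 CPM.

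None of the 48 measured members was 1.5-fold or more higher in the library labelled knockout with an interval excluding 1, a rule that 2.48% of all 10462 measured genes passed, and none was lower, against 1.5% of all genes. At 1.2-fold, 2 members were higher (Prkacb and Rgs16; 6.19% of all genes) and 2 were lower (Prkar2b and Akap12; 5.48% of all genes). At any fold, 4 members had an interval above 1 (16.2% of all genes) and 7 below 1 (19.5% of all genes). Each count is a smaller share of the 48 members than of all genes. The median log2 ratio of measured members was 0.02, that of all measured genes -0.01, and 26 members were above 1 and 22 below.

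The spread of all genes between the libraries sets a scale for these ratios. Among 2162 genes at 100 CPM or more the log2 ratios had an SD of 0.121 and 90% of genes were within 1.13-fold in either direction. The 11 members at that level had an SD of 0.142 and reached at most 1.23-fold (Rgs16). From 10 to 100 CPM the SD was 0.112 for 21 members and 0.170 for 5053 genes, and from 1 to 10 CPM it was 0.320 for 16 members and 0.428 for 3247 genes. A ratio whose interval excludes 1 can thus still lie within this spread.

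**Figure D1:**
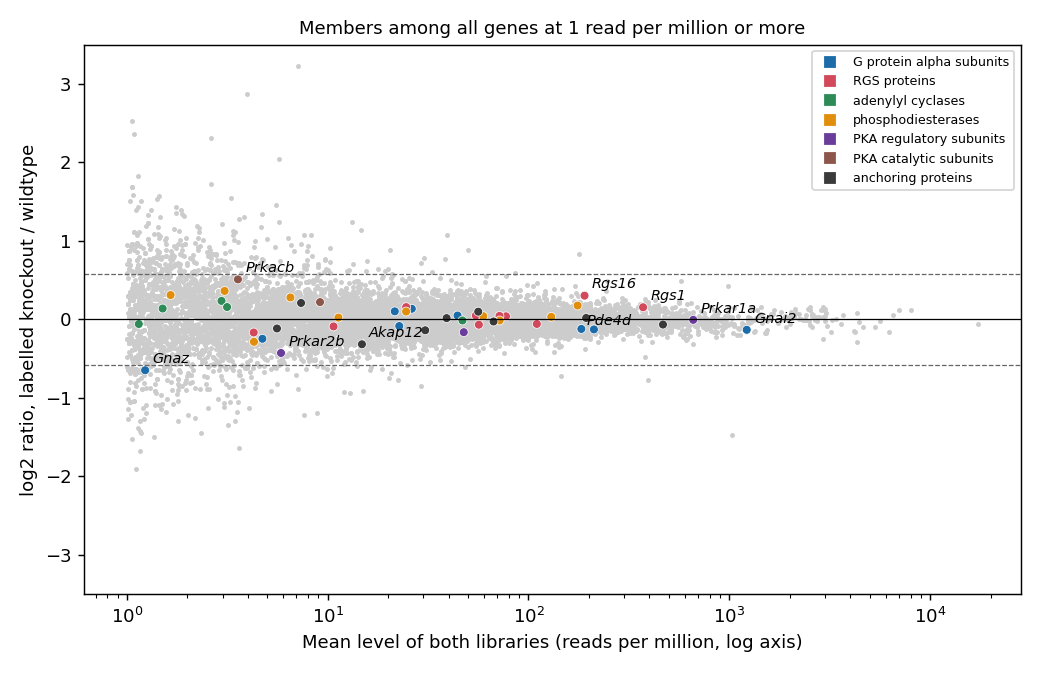
The log2 ratio of the library labelled knockout to the wildtype library is plotted against the mean level in CPM (log axis) for all 10462 genes at 1 CPM or more (grey) and for the 48 measured members (coloured by subfamily), with dashed lines at 1.5-fold. Rgs16 lies highest among the members at 10 CPM or more, and of the members farther from 0 than Rgs16 all but Akap12 lie below 10 CPM.

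G protein alpha subunits couple receptors to their effectors, and the Gi class held most of the level. Levels of different genes are compared as CPM per kilobase of exon (RPKM), since longer transcripts yield more reads. Gnai2 (chromosome 9, 107614125 to 107635367) had the highest level of all 80 members, 308 RPKM in the library labelled knockout, against 338 in wildtype, or 72.5% and 73.1% of the summed level of alpha subunits. Gnai3 followed at 62.1 and 67.8 RPKM, 4.97 and 4.98 times lower. These are the alpha subunits that chemokine receptors use in lymphocytes. The third Gi gene, Gnai1, had only 7 and 6 reads. Together the Gi class took 87.3% of the summed level in the library labelled knockout versus 88.0% in wildtype.

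Gnas, which encodes the stimulatory subunit that activates adenylyl cyclase, had 1.97 RPKM in the library labelled knockout, against 2.09 in wildtype, 156 and 162 times below Gnai2. It is a complex imprinted locus with 12 curated transcripts, and 22% of its exon length is shared with other genes, an antisense transcript among them, so its level is uncertain. Per longest transcript its mean was 5.76 RPKM instead of 2.03. Its olfactory relative Gnal had 2 reads in each library. The G12/13 class was led by Gna13 at 27.4 and 29.8 RPKM, with Gna12 at 8.05 and 7.33. In the Gq class, which activates phospholipase C, Gna11 stood at 11 and 10.6 RPKM and Gnaq at 3.62 and 3.37. Gna15, a Gq-class subunit of blood cells and the neighbour of Gna11 on chromosome 10, stood at 2.03 and 2.41. The order Gnai2, Gnai3, Gna13, Gna11, Gna12, Gnaq was the same in both libraries, with counting intervals that do not overlap between neighbours, whereas those of Gna15 and Gnas overlapped.

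The 3 most abundant alpha subunits were lower in the library labelled knockout by a similar small amount. Gnai2 had 27967 reads in the library labelled knockout against 33778, a ratio of 0.913 (0.898 to 0.927). For Gnai3 the reads were 4862 and 5850 and the ratio 0.916 (0.882 to 0.952), and for Gna13 4217 and 5054 and the ratio 0.920 (0.883 to 0.958). All 3 intervals lie below 1, and all 3 ratios are inside the 1.13-fold range that holds 90% of genes at this level. Gna11, Gna12 and Gnaq had ratios between 1.04 and 1.10, and Gnas 0.944 (0.839 to 1.06), each with an interval that includes 1. Gnaz, a Gi relative, had 23 and 40 reads and the lowest ratio of the measured members, 0.638, with an interval of 0.362 to 1.08. Summed over the 14 alpha subunits the ratio was 0.921 (0.909 to 0.934), and 0.943 (0.920 to 0.966) without Gnai2.

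**Figure D2:**
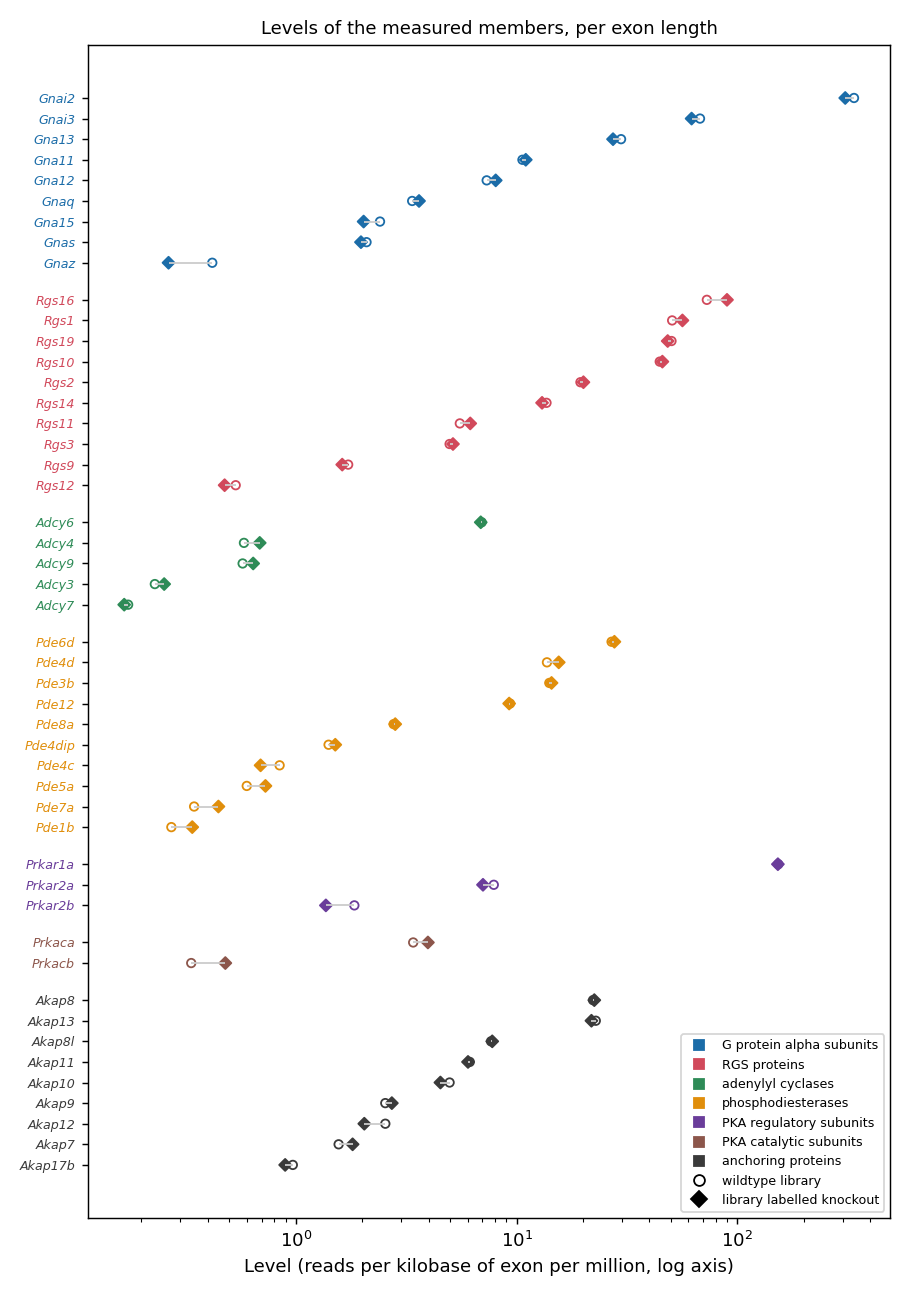
Each measured member is placed at its level in RPKM (log axis), with an open circle for the wildtype library and a filled diamond for the library labelled knockout, grouped by subfamily. Gnai2 and Prkar1a lie above 100 RPKM in both libraries, and both catalytic PKA subunits and all 5 measured adenylyl cyclases lie below 10.

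RGS proteins return active alpha subunits to their resting state, and 10 of the 16 listed here were measured. The R4 family of small RGS proteins, which act on Gi and Gq, held 59.8% of the summed RGS level in the library labelled knockout versus 56.0% in wildtype. Rgs16 (chromosome 1, 153740349 to 153745468) stood at 89.8 and 72.8 RPKM and Rgs1 (chromosome 1, 144242296 to 144249242) at 56.4 and 50.7. Both genes are known to be induced by lymphocyte activation and to limit responses to chemokines. Rgs19 followed at 48.4 and 50.3 RPKM, Rgs10 at 45.8 and 44.5, and Rgs2, which acts mainly on Gq, at 20.1 and 19.5. The order depends on the length used: with the longest transcript in place of all exons, Rgs10 led with 23.2% of the summed RGS level and Rgs16 held 21.5%.

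Rgs16 had the highest ratio of the members at 10 CPM or more. It had 5043 reads in the library labelled knockout, against 4505 in wildtype, or 210 and 170 CPM, a ratio of 1.23 (1.19 to 1.28). For Rgs1 there were 9409 and 9317 reads, 392 and 352 CPM, and the ratio was 1.11 (1.08 to 1.15). Rgs16 is thus outside the 1.13-fold range of 90% of genes at its level, and Rgs1 inside it. In Rgs16, 10.1% of the exon length is shared with another gene on the opposite strand, and reads were counted with a strand setting not given in the sources used here. Among R4 genes, Rgs2 and Rgs3, had ratios of 1.03 and 1.04 with intervals that include 1. Summed over the R4 genes the ratio was 1.13 (1.11 to 1.15).

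The measured RGS genes of the other families had ratios between 0.891 (Rgs12) and 1.11 (Rgs11), each with an interval that includes 1. The ratio of Rgs11 was as high as that of Rgs1 in the R4 family, on fewer reads. Rgs10 (R12 family) had a ratio of 1.03 (0.965 to 1.10), Rgs14 of the same family 0.955 (0.886 to 1.03) and Rgs19 (RZ family) 0.961 (0.911 to 1.01). Rgs11 and Rgs9 belong to the R7 family, best known from retina and brain, where they pair with the G protein beta subunit Gnb5. Rgs11 had 623 and 616 reads (6.17 and 5.54 RPKM) and Rgs9 249 and 292 (1.62 and 1.73 RPKM). Their ratios were 1.11 (0.996 to 1.25) and 0.940 (0.790 to 1.12), so neither interval excludes 1. The membrane anchors of this family, Rgs7bp and Rgs9bp, had at most 6 reads in a library.

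Adenylyl cyclases make cAMP, and Adcy6 held 78.2% of their summed level in the library labelled knockout versus 80.3% in wildtype. Adcy6 (chromosome 15, 98589973 to 98610076) encodes a membrane cyclase inhibited by calcium and by Gi. It had 1121 and 1247 reads, 6.89 and 6.95 RPKM, and a ratio of 0.991 (0.913 to 1.07). Adcy4 stood at 0.687 and 0.583 RPKM, Adcy9 at 0.641 and 0.575, and Adcy3 at 0.253 and 0.230. The intervals of Adcy4 and Adcy9 overlap in both libraries, so their order cannot be told from counting error. Adcy7, known as a main cyclase of lymphoid cells, had 27 and 31 reads and lay 41.2 and 39.9 times below Adcy6. It is annotated with 4 curated transcripts and Adcy6 with 2. Adcy1 and the soluble cyclase Adcy10 had reads in the wildtype library only, 2 and 1, and none of the 5 measured cyclases had an interval excluding 1.

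Phosphodiesterases destroy cAMP, cyclic GMP or both, but several genes with this name do something else. Pde6d, the gene with the highest level under a Pde name at 27.8 and 27.0 RPKM, encodes a chaperone of prenylated proteins. Pde12 (9.26 and 9.35 RPKM) encodes a mitochondrial enzyme that trims RNA tails, and Pde4dip (1.51 and 1.41 RPKM) a protein of the centrosome and Golgi. Their ratios were 1.03, 0.991 and 1.07, each with an interval that includes 1.

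Among 16 genes for enzymes that cleave cyclic nucleotides, Pde4d and Pde3b were far above the rest. Pde4d (chromosome 13, 108449948 to 109953461), a cAMP-specific enzyme of the rolipram-sensitive PDE4 family, stood at 15.5 RPKM in the library labelled knockout, against 13.7 in wildtype. Pde3b (chromosome 7, 114415281 to 114539251), which cleaves cAMP and is inhibited by cyclic GMP, stood at 14.4 and 14.1. Their order was reversed between the libraries, Pde4d being 1.08 times Pde3b in the library labelled knockout and 0.976 times in wildtype. In the wildtype library their counting intervals overlap, so the order there cannot be told from counting error. Per longest transcript in place of all exons, Pde4d led clearly, with a mean of 41.8 RPKM against 19.8 for Pde3b. The cAMP-specific enzymes together held 55.5% and 53.9% of the summed level of the 16 genes, the dual-specificity enzymes 42.4% and 44.2%, and the cyclic GMP-specific enzymes 2.13% and 1.92%. Pde8a, a cAMP-specific enzyme of high affinity, was next at 2.82 and 2.78 RPKM, and Pde4c, Pde5a, Pde7a and Pde1b lay between 0.273 and 0.845.

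Pde4d had 4476 against 4363 reads, 186 and 165 CPM, and a ratio of 1.13 (1.08 to 1.18), at the edge of the range of 90% of genes at its level. Pde3b had 3152 and 3395 reads and a ratio of 1.02 (0.975 to 1.07), and Pde8a 274 and 297 reads and a ratio of 1.02 (0.860 to 1.2). Summed over the genes with Pde names the ratio was 1.06 (1.03 to 1.09), and 1.02 (0.989 to 1.05) without Pde4d. The other PDE4 genes had few reads: Pde4c 93 and 125, Pde4a 14 and 7, and Pde4b 12 and 21. Pde4b is known to be induced by T cell receptor signalling, yet it lay 328 and 183 times below Pde4d. It carries 6 curated transcripts and Pde4d 1. Pde7a, the cAMP-specific enzyme long tied to T cells, had 83 and 71 reads with a ratio of 1.29 (0.927 to 1.79), and it carries 2.

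**Figure D3:**
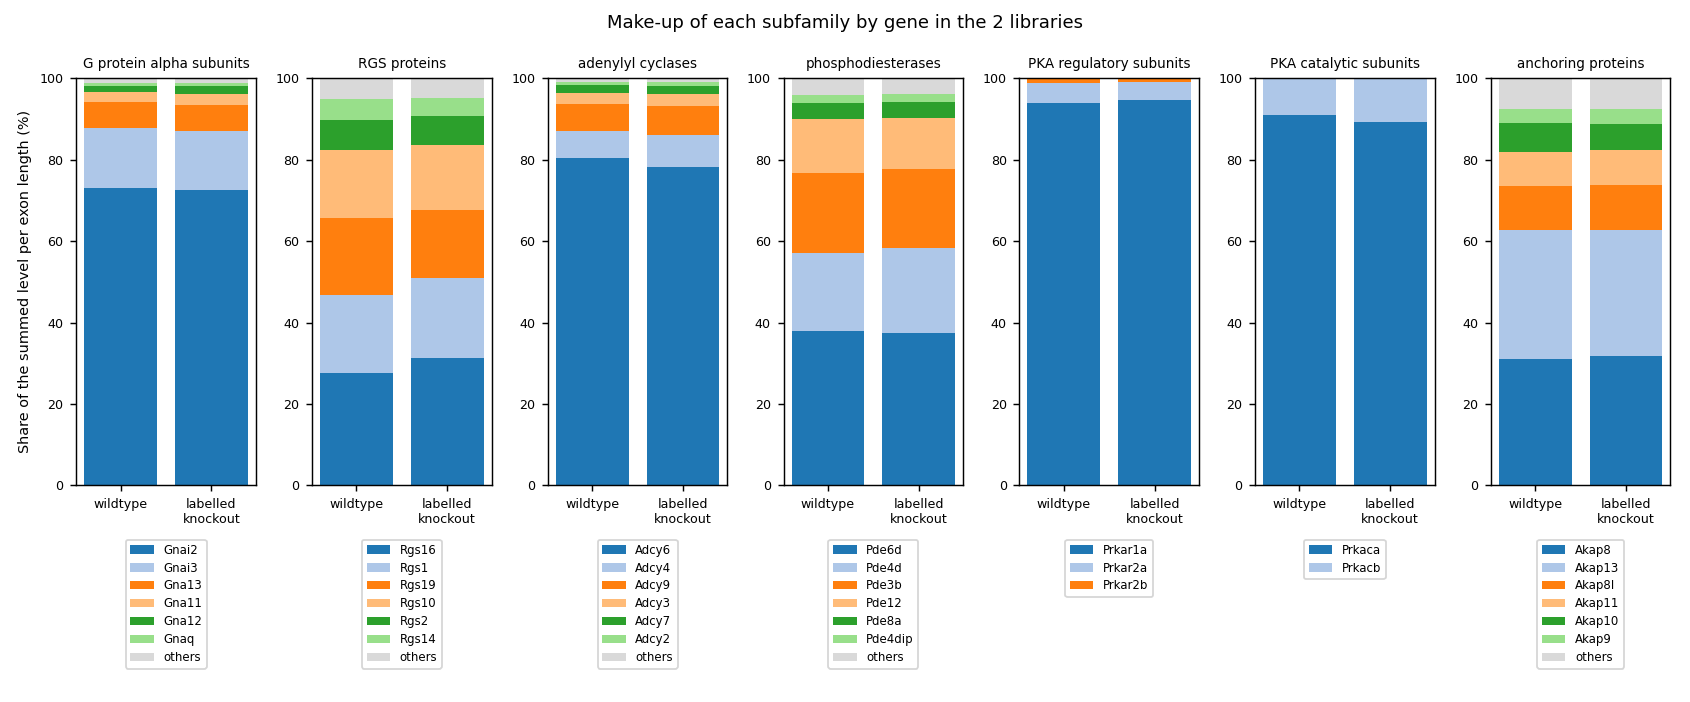
Each stacked bar splits the summed level per exon length of a subfamily (%) among its genes in the wildtype library and the library labelled knockout, with the 6 highest genes in colour and the rest in grey. Gnai2, Adcy6, Prkar1a and Prkaca each fill most of their bars, while RGS proteins, phosphodiesterases and anchoring proteins are divided among several genes.

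The regulatory subunits of PKA bind cAMP, and Prkar1a, encoding the RI-alpha subunit, held 94.8% of their summed level in the library labelled knockout versus 94.0% in wildtype. Prkar1a (chromosome 11, 109649405 to 109669656) had 15841 and 17524 reads, 153 RPKM in each, second among all members. Prkar2a and Prkar2b encode the RII subunits, which bind most anchoring proteins more tightly than RI does. They stood at 7.05 and 7.89 RPKM and at 1.37 and 1.84 RPKM. Both RII genes were somewhat lower in the library labelled knockout: Prkar2a had 1079 and 1331 reads with a ratio of 0.894 (0.824 to 0.969), and Prkar2b 120 and 178 reads and a ratio of 0.744 (0.585 to 0.942). Summed, the RII genes had a ratio of 0.876 (0.811 to 0.945). The ratio of Prkar2b, 1.34-fold lower, is smaller than the 1.61-fold that bounds 90% of all genes between 1 and 10 CPM.

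Catalytic subunits carry the kinase activity, and Prkaca and Prkacb had 338 reads between them in the library labelled knockout, against 302 in wildtype. Prkaca stood at 3.97 and 3.40 RPKM and Prkacb at 0.480 and 0.336. The summed level of the regulatory genes was 36.2 and 43.6 times that of these catalytic genes. That sum covers only Prkaca and Prkacb, the catalytic genes that match the symbol rule. Prkx, a gene outside the rule from the list of other cAMP effectors, had 639 and 756 reads and is not in it. The ratio of Prkx was 0.932 (0.837 to 1.04). Prkaca carries 2 curated transcripts and Prkacb 4. Prkacb had 101 against 78 reads, 4.21 and 2.95 CPM, and a ratio of 1.42 (1.05 to 1.94), inside the 1.61-fold range for genes of this level. With the wildtype library thinned to the total of the other, its interval included 1 (1.36, 0.996 to 1.86), which ends the 1.2-fold call. Prkaca had 237 and 224 reads, which gives a ratio of 1.17 (0.967 to 1.41). Summed, the ratio of Prkaca and Prkacb was 1.23 (1.05 to 1.45), on 338 and 302 reads. The RII genes lay on the other side of 1, on 1199 and 1509 reads. Prkx, with more reads than Prkaca and Prkacb together, also had a ratio below 1, with an interval that includes 1. The contrast with the RII genes thus covers only Prkaca and Prkacb.

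Anchoring proteins hold PKA at particular places, and 9 of 15 were measured. Akap8, a nuclear anchor, stood at 22.5 RPKM in the library labelled knockout versus 22.2 in wildtype, and Akap13, a large anchor that binds PKA, at 21.8 and 22.9. Their order was reversed between the libraries, but their counting intervals overlap in both. The order of these anchors thus cannot be told from counting error. By reads without regard to length Akap13 led, with 10966 and 12647 against 4680 and 5092. Akap8l, next to Akap8 on chromosome 17, stood at 7.76 and 7.67 RPKM, Akap11 at 6.03 and 6.14 and Akap10 at 4.52 and 4.97. Akap9, the large anchor of centrosome and Golgi, stood at 2.72 and 2.54, and Akap12 (gravin), an anchor at the plasma membrane, at 2.04 and 2.55. Akap1, the anchor of the outer mitochondrial membrane, had only 8 and 7 reads and carries 3 curated transcripts.

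Akap12 had the lowest ratio of the anchors, 317 against 435 reads, 13.2 and 16.4 CPM, and a ratio of 0.803 (0.693 to 0.930). That 1.24-fold difference is just beyond the 1.2-fold that bounds 90% of genes from 10 to 100 CPM. Akap13 had a ratio of 0.956 (0.931 to 0.981) and Akap8 of 1.01 (0.973 to 1.05). Akap5, whose product holds PKA and calcineurin together, was just short of measured at a mean of 0.994 CPM. It had 35 reads in the library labelled knockout, against 14 in wildtype, a ratio of 2.69 (1.45 to 5.54). Summed over all 15 anchors the ratio was 0.978 (0.960 to 0.996), and 1.0 (0.976 to 1.03) without Akap13.

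**Figure D4:**
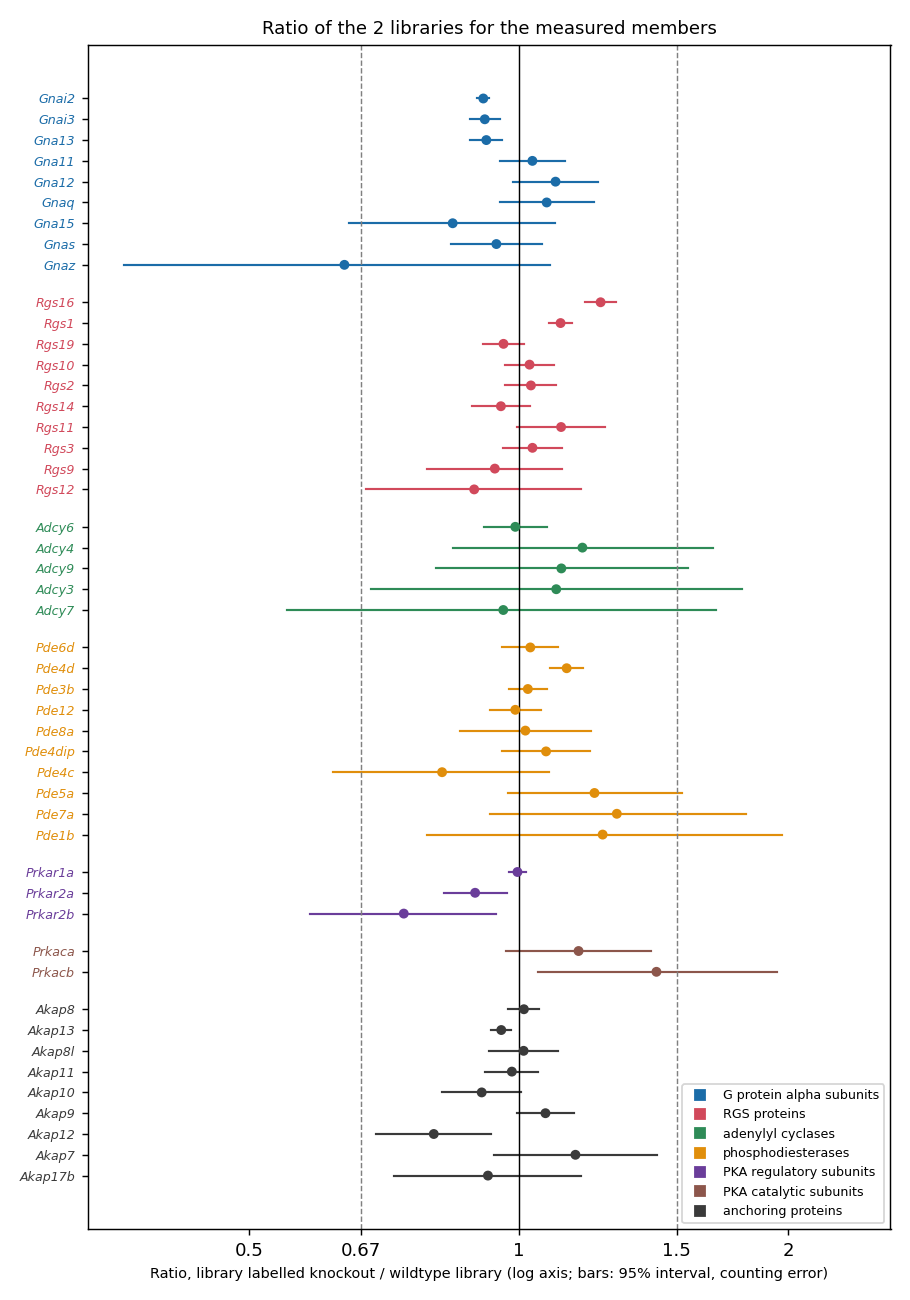
The ratio of the library labelled knockout to the wildtype library (log axis) is drawn for each measured member with its 95% interval for counting error, with a solid line at 1 and dashed lines at 1.5-fold. All 48 points lie within 1.5-fold of 1 except Gnaz, at 0.638, whose interval includes 1.

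The rest of the pathway was read from 9 lists of receptors, G protein partners, effectors and targets, which held 87 measured genes outside the symbol rule. Of these, 6 (6.90%) were higher by 1.5-fold with an interval excluding 1, against 2.48% of all genes, and 5 (5.75%) were lower, against 1.5% of all genes. Their median log2 ratio was -0.02. The lists were drawn up with earlier results of these data known, and all genes were not matched to them for level. The shares of the lists are therefore descriptions and cannot show an excess over all genes. Among pathway genes that reached 10 CPM, 2 were called higher and 3 lower. The share over all genes at that level was not worked out, so these counts cannot be called many or few. Between 1 and 10 CPM, 1.61-fold bounds 90% of all genes, so calls there can lie within the spread. Among 8 measured Gs-coupled receptors 1 was higher, Adora2a, an adenosine receptor that raises cAMP, with 876 against 587 reads and a ratio of 1.64 (1.48 to 1.83). Gpr65, a proton-sensing receptor, had 2763 and 4063 reads and a ratio of 0.750 (0.714 to 0.787), while the prostaglandin E2 receptor gene Ptger2 had 0.978 (0.895 to 1.07). Coupling to Gi was taken from the list and was not tested for any receptor. Among 20 measured genes listed as Gi-coupled receptors 4 (20%, against 1.5% of all genes) were lower: Lpar6 (0.532, 0.455 to 0.619), Cnr2 (0.610, 0.486 to 0.760), Gpr183 (0.659, 0.607 to 0.715) and Cxcr6 (0.645). None was higher, and the median log2 ratio of the list was -0.16.

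None of the 8 measured beta and gamma subunit genes was 1.2-fold apart in either direction with an interval excluding 1. Gngt2 (1.41), Gng4 (1.21) and Gng2 (0.748) were farther apart than 1.2-fold on few reads, each with an interval that includes 1. The most abundant beta gene by reads, Gnb2, had 11914 and 12338 reads and a ratio of 1.06 (1.04 to 1.09). Of 7 genes for G protein chaperones, receptor kinases and arrestins, none was 1.5-fold apart, and the receptor kinase genes Grk4 and Grk5 had ratios of 1.25 and 0.830. Of 5 other cAMP effectors, inhibitors and exporters, Hcn3 was higher, at 1.61 (1.19 to 2.20) on 110 and 75 reads. The cAMP sensor gene Rapgef3 (EPAC1) and the PKA inhibitor gene Pkia were unlisted. Of 13 genes of the CREB family and its regulators 1 was higher (Atf7, 1.59), of 16 cAMP-inducible genes (Pde4d and Rgs2 among them) 1 was higher (Il2, 1.53) and 1 lower (Areg, 0.661), and of 12 genes through which Rap1 and PKA act in T cells 1 was higher, Hdac5, on 48 and 30 reads. Csk, through which PKA restrains the kinase Lck, had a ratio of 0.95 (0.925 to 0.977). In the cyclic GMP branch 2 genes were measured, and Nos2, the inducible nitric oxide synthase, was higher at 2.48 (1.81 to 3.45) on 131 and 58 reads.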

How the data were processed

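Messenger RNA was sequenced from 1 Th17 library per genotype. The authors deposited raw counts of uniquely assigned reads per gene symbol, per the file headers, with no normalization. bcl2fastq, HTSeq and the build mm10 are named per the submitters' processing notes. Aligner, annotation and strand setting: not given in the sources used here. Genes unlisted in 1 library were taken as 0 reads. Grouping follows the genotype labels.

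Libraries were scaled with edgeR 4.0.16 (TMM, R 4.3.3). Ratios had a prior count of 0.5 and exact conditional binomial (Clopper-Pearson) 95% intervals, and levels exact Poisson intervals. A quasi-likelihood fit in edgeR needs replicates and was not possible. Called genes had a mean of 1 CPM or more, the stated fold and an interval excluding 1, over all genes. RPKM used the union of exons in GENCODE M21. Named members had a mean of 10 CPM or more, were called at 1.5-fold or led their subfamily per length. Others are named for a role or a low count, after their values were seen. The steps were tested on simulated data.

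Members and lists were chosen with earlier results of these data known. Alternatives were total-count, DESeq2 1.42.0 and upper-quartile scaling, other filters, folds and prior, thinning of the wildtype library, 1 curated transcript, other lengths, leaving out a leading gene and the 5-base core. Python 3.11.15, scipy 1.17.1 and matplotlib 3.10.9 were used.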

Additional observations from a re-analysis of the deposited data

How the results depend on the processing

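For 35 members, all 175 ratios under 5 alternatives (3 scalings, a prior count of 5 and thinning) stayed inside the interval of the reported ratio. These alternatives reuse the same reads and add no replicate, so this count does not show how far ratios would vary between cultures. The 1.2-fold call of Prkacb was lost with the wildtype library thinned (1.36, 0.996 to 1.86), and those of the other 3 members were not lost under these 5. The interval of Gna12 moved above 1 with thinning (1.13, 1.01 to 1.26), and that of Rgs11 with scaling by total counts (1.12, 1.001 to 1.255). The interval of the summed anchors included 1 with that scaling (0.983, 0.965 to 1.001). The ratios of Prkar1a, Akap8l and Pde12 crossed 1, lying between 0.994 and 1.0, 0.999 and 1.02, and 0.990 and 1.0. Without a filter on low counts all 80 members count as measured and 1 was called higher (Akap5). At 1.2-fold, 2 of the 48 measured members were called higher and 2 lower, against 6.19% and 5.48% of all genes. Of the 87 measured pathway genes outside the symbol rule, 11 were called higher and 11 lower at 1.2-fold (12.6% each). At 1.5-fold and a mean of 10 CPM or more, 2 of the pathway genes were called higher and 3 lower, and at 2-fold 1 and 0. The share over all genes was not worked out for the 10 CPM and 2-fold rules. Without the gene with the most reads, summed ratios were 0.943 for alpha subunits, 0.876 for regulatory subunits, 1.11 for cyclases, 1.0 for anchors and 1.02 for phosphodiesterases. Per longest transcript, the gene that leads per exon length held 81.1% of alpha subunits, 83.0% of catalytic subunits, 21.5% of RGS proteins (Rgs10 then led with 23.2%), 37.0% of anchors and 36.1% of phosphodiesterases. By counts without length it held 70.2% of alpha subunits, 71.9% of catalytic subunits, 92.5% of regulatory subunits, 19.5% of RGS proteins (Rgs1 then led), 82.9% of cyclases, 21.9% of anchors (Akap13 led) and 12.1% of phosphodiesterases (Pde4d led). The length used sets these shifts by construction. The 5-base core was found for 33.3% of members against 1.59% for the full element. No paired analysis was possible because each group holds 1 library. Below about 10 CPM, counting error limits the ratios.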

Other observations

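Neighbouring members of 1 family differed widely in level. In the RGS cluster of chromosome 1, Rgs1 and Rgs2 had 9409 and 1749 reads in the library labelled knockout, whereas Rgs13 had 6 and Rgs18 had 0, and Rgs21 was unlisted. In the wildtype library the counts were 9317, 1869, 8 and 2. Elsewhere on chromosome 1, Rgs16 had 5043 and 4505 reads and its relative Rgs8 had 12 and 20. On chromosome 10, Gna11 (81528724 to 81545190) lay beside Gna15 (81502306 to 81524225) with 10.8 RPKM against 2.22 RPKM in the mean of both libraries. On chromosome 11 an alpha subunit, an RGS gene and a PKA gene of different level stood in 1 stretch: Rgs9 (109225355 to 109298129) at 1.68 RPKM, Gna13 (109362831 to 109401369) at 28.6 RPKM and Prkar1a (109649405 to 109669656) at 153 RPKM.

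Genes for sensory forms of the pathway had few reads. The transducin gene Gnat2, which acts in cone cells, had 16 and 15 reads, and the rod gene Gnat1 had 8 and 2, a ratio of 3.70 with an interval of 0.880 to 42.6. The gamma subunit gene Pde6g had 15 and 25 reads, Pde6a 0 and 3, and Pde6h 0 and 1, while Pde6b and Pde6c were unlisted. Pde7b had 4 reads in the library labelled knockout versus 14 in wildtype, a ratio of 0.340 with an interval that just includes 1 (0.0755 to 1.0).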
